A study of Mus musculus with 2 samples.

Results

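Serotonin receptor genes were examined in the cortex of P4H-TM KO and WT mice. P4H-TM, the product of P4htm, is a prolyl 4-hydroxylase of the endoplasmic reticulum membrane that can act on hypoxia-inducible factor (HIF). The genes were taken by name: 10 symbols were looked up among all probe sets annotated to a single symbol, with no threshold on a measured value. Of these, 9 genes were measured by 17 probe sets, out of 18193 genes measured in all, and Htr2a was not measured here. P4H-TM KO (P4h-tm-/-) mice were set against WT littermates. Both groups were naive males aged 2.5 months on the C57BL/6J background. The RNA of 4 mice was pooled for each genotype and hybridized to 1 Affymetrix mouse genome array, so the series consists of 2 arrays. Since each genotype has a single array, differences between them cannot be checked on replicates, and neither p-values nor errors between animals can be given. In RNA of whole tissue fewer cells of a type and less RNA per cell cannot be told apart.

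Serotonin reaches the cortex through axons of neurons whose cell bodies lie in the raphe nuclei of the brainstem. Its receptors form families by the way they signal. Receptors of the 5-HT1 family couple to Gi/o proteins, which inhibit adenylyl cyclase, and those of the 5-HT2 family couple to Gq, which activates phospholipase C and releases calcium from the endoplasmic reticulum. The 5-HT4, 5-HT6 and 5-HT7 receptors couple to Gs and stimulate adenylyl cyclase, whereas 5-HT3 is a cation channel opened by serotonin. The study's interest in calcium signaling places the 5-HT2 family closest to its question.

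The start-site window of Htr2c, the receptor gene with the highest difference, is shown here for reference. It was copied from RefSeq (GRCm38.p6, chrX:146962263-146962562, plus strand) and runs from 250 bases before the transcription start to 50 after it.
Htr2c: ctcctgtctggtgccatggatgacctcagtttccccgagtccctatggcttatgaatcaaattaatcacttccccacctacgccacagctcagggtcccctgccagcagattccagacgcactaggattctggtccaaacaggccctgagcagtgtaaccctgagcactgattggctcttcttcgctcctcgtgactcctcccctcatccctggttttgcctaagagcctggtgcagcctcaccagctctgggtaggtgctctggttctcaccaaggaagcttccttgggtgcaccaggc
Because P4H-TM can act on HIF, the windows were searched on both strands for ACGTG and GCGTG, the core letters to which HIF binds. On the opposite strand these read CACGT and CACGC, and the E-box CACGTG holds both ACGTG and CACGT. Of 8 windows of 7 serotonin receptor genes, 3 held such letters (37.5%), against 43.8% of all 32851 windows in the table. The windows of Htr2c, Htr2b, Htr1f and Htr2a held none. For the others, the letters around the first match follow, with the match in capitals, so that they can be set beside the values of these genes.
Htr1a (GRCm38.p6, window chr13:105443443-105443742, plus strand), first match at -59 from the start: gggggttaACGTGggaggaag
Htr1b (window chr9:81633783-81634082, minus strand), first match at 27 from the start: gactaaagACGTGggttgact
Htr1d (window chr4:136423274-136423573, plus strand), first match at 7 from the start: caagcaagGCGTGgaatagct
The second window of Htr1d held no match. Htr1a, Htr1b and Htr1d had differences between -0.14 and 0.12 on the log2 scale.

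P4htm was examined first as a check of the labels. The log2 value of its probe set 1459807_x_at was 9.10 in P4H-TM KO and 11.05 in WT, or 3.86-fold lower in P4H-TM KO. The other probe set, 1428211_at, had 8.07 in P4H-TM KO and 9.71 in WT. Both probe sets were lower in the array labelled KO. All values below are the deposited log2 values, in which a step of 1 is a doubling, and every difference is P4H-TM KO minus WT. Where a gene had several probe sets, the one with the brightest signal, averaged over the arrays, stood for it. Counts at 1.5-fold (0.585 on the log2 scale) took in genes whose mean reached a filter of 6.385, which is the median over the probe sets of the array. The 6 members Htr1a, Htr1b, Htr2c, Htr3a, Htr4 and Htr7 passed this filter, and the 3 members Htr1d, Htr1f and Htr2b did not. A signal depends on its probes, so signals were not read as relative levels of different genes. Sums of linear signals over a list are therefore weighted toward its brightest probe sets. Probe sets of the same gene gave log2 differences that varied with a pooled SD of 0.15, taken over 9010 genes. It was 0.10 among probe sets above the filter, 0.19 among those below it, and 0.26 over the 7 receptor genes with several probe sets. This SD describes the agreement of probe sets on these arrays and is not a spread between mice.

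Of the 6 receptor genes above the filter, 0 reached 1.5-fold in the higher direction and 0 in the lower direction in P4H-TM KO. Among all 11730 genes above the filter these shares were 0.631% and 0.0512%. All of the 6 but Htr2c, that is 5, differed by less than 0.32 on the log2 scale, as 11405 of the 11730 genes did. Over the 9 measured receptor genes, P4H-TM KO had the higher value in 4 and the lower value in 5, against 46.0% higher and 49.0% lower among all genes. Their median difference was -0.02, beside a median of 0.00 over all genes, and single members ranged from -0.67 for Htr1f to 0.53 for Htr2c. The receptor genes did not share a direction.

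**Figure D1:**
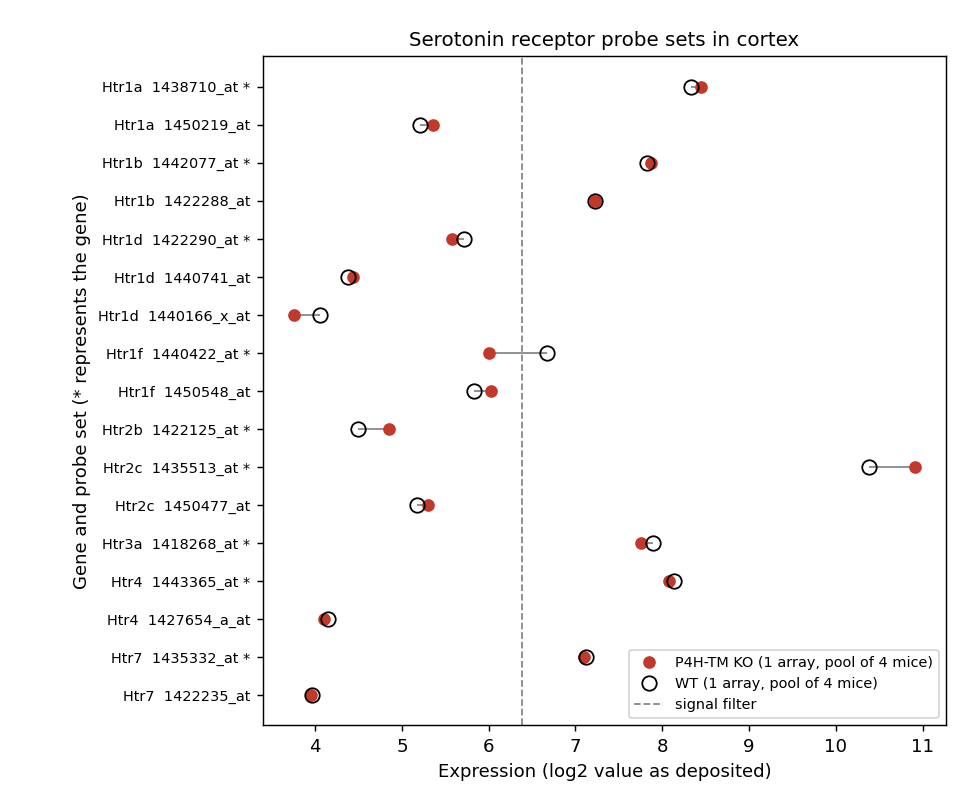
Deposited log2 value (horizontal axis) of each of 17 serotonin receptor probe sets (vertical axis) in the P4H-TM KO array (red points) and the WT array (open circles). Each array is a pool of 4 mice, lines join the values of a probe set, the asterisk marks the probe set that represents the gene, and the dashed line is the signal filter at 6.385. The widest gaps belong to a probe set of Htr1f, with a difference of -0.67, and to one of Htr2c, with 0.53.

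In the Gq-coupled family, Htr2c had the highest difference of all members. This receptor is abundant in the epithelium of the choroid plexus, which forms the cerebrospinal fluid, and in neurons of limbic regions, and its RNA is edited by adenosine deaminases. The log2 value of probe set 1435513_at was 10.91 in P4H-TM KO and 10.38 in WT, a difference of 0.53, which is 1.44-fold higher in P4H-TM KO. The gene was just short of 1.5-fold. It was the only member above the filter that was higher by at least 0.32 on the log2 scale, a size reached by 2.0% of all genes above the filter. Of the 11730 genes above the filter, 87 had a difference at least as high. The other probe set, 1450477_at, had 5.30 in P4H-TM KO and 5.17 in WT, a difference of 0.13 at a signal below the filter. Both probe sets were higher in P4H-TM KO, and their average difference was 0.33. The gap between 0.53 and 0.13 exceeded the pooled SD between probe sets.

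Htr2b, known for its part in heart development and in blood vessels, had 4.85 in P4H-TM KO and 4.50 in WT on its single probe set, 1422125_at. The difference of 0.35, or 1.27-fold, was measured at a signal below the filter, and no second probe set was present to set beside it. Of all 18193 genes, 396 had a difference at least as high. All 3 probe sets of the 5-HT2 genes had their higher value in P4H-TM KO, where 46.0% of all genes were higher. Only the brighter probe set of Htr2c was above the filter, and Htr2a was not measured. No shared rise of the family is therefore read from this count. The study's interest in calcium signaling arose from these same arrays, so these values are no independent evidence for it.

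Some markers of other tissues also had higher values in P4H-TM KO, in lists written with earlier results of these arrays known. The 16 measured markers of choroid plexus epithelium all had their higher value in P4H-TM KO. Their median difference was 1.525, and 14 of the 15 above the filter reached 1.5-fold. The sum of their signals on the linear scale was 38069 in P4H-TM KO and 25779 in WT. This sum is weighted toward Ttr, which has the brightest probe set of the list. Without that gene the sum was 8331 in P4H-TM KO and 2769 in WT. The lowest difference of this list, 0.37, was that of Ttr, the carrier of thyroid hormone, whose log2 values were 14.86 in P4H-TM KO and 14.49 in WT. Kcnj13, a potassium channel gene, had the highest, with 10.54 in P4H-TM KO and 8.33 in WT. Between them lay Tmem72, Slc13a4, Sostdc1, Calml4, Kl, Aqp1, F5, Steap1, Otx2, Clic6, Cldn2, Folr1 and Kcne2, with differences from 0.86 for Tmem72 to 2.13 for Kcne2. Of these, Cldn2 had another probe set at 0.03. Slc4a5, a bicarbonate transporter gene and the one marker below the filter, had 6.84 in P4H-TM KO and 5.90 in WT. The share of Htr2c signal that came from this epithelium was not tested. Markers of the claustrum, amygdala and piriform cortex had a median of 0.11, with 8 of 13 members higher. Of the 13, 5 were lower. Above the filter 3 reached 1.5-fold, namely Trhr at 1.18, Oxtr at 0.64 and Dlk1 at 0.59. The other probe set of Trhr gave -0.14 and that of Oxtr 0.03. Since the list was written with earlier results known, these 3 genes are no independent sign of the region. The lowest of the list was Slc30a3, at -0.20. The summed signal of the list was 6702 in P4H-TM KO and 6030 in WT. It is weighted toward Nr4a2, the brightest of the list, with 11.30 in P4H-TM KO and 11.04 in WT. The part of these regions in the Htr2c difference was not tested either.

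Beside Htr2b, markers of mural cells, the contractile cells of vessels, had a median difference of 0.12, with 6 of 9 members higher and Abcc9 the lowest at -0.12. Acta2, smooth muscle actin, was the one at 1.5-fold, with 10.32 in P4H-TM KO and 9.69 in WT, although its probe sets ranged from 0.07 to 0.63. Markers of the meninges had a median of 0.32, with 11 of 14 members higher and 4 at 1.5-fold. These were Dcn at 0.90, Igf2 at 0.84, Ogn at 0.70 and Col3a1 at 0.65, of which Dcn and Igf2 had another probe set at 0.10 and 0.06, and the lowest marker above the filter was Slc22a6, at -0.01. Endothelial markers had a median of 0.09, and 5 of 8 were higher, with a range above the filter from Abcb1a at -0.07 to Cdh5 at 0.25. The other probe set of Cdh5 gave -0.28, and with probe sets averaged 4 were higher and 4 lower, with a median of 0.0275. The summed linear signal was 7535 in P4H-TM KO and 6620 in WT for mural cells, 6703 in P4H-TM KO and 4309 in WT for the meninges, and 4654 in P4H-TM KO and 4412 in WT for the endothelium. The meningeal sum is weighted toward Dcn and Igf2, which had the brightest probe sets of that list. The part of these tissues in the Htr2b difference was not tested.

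**Figure D2:**
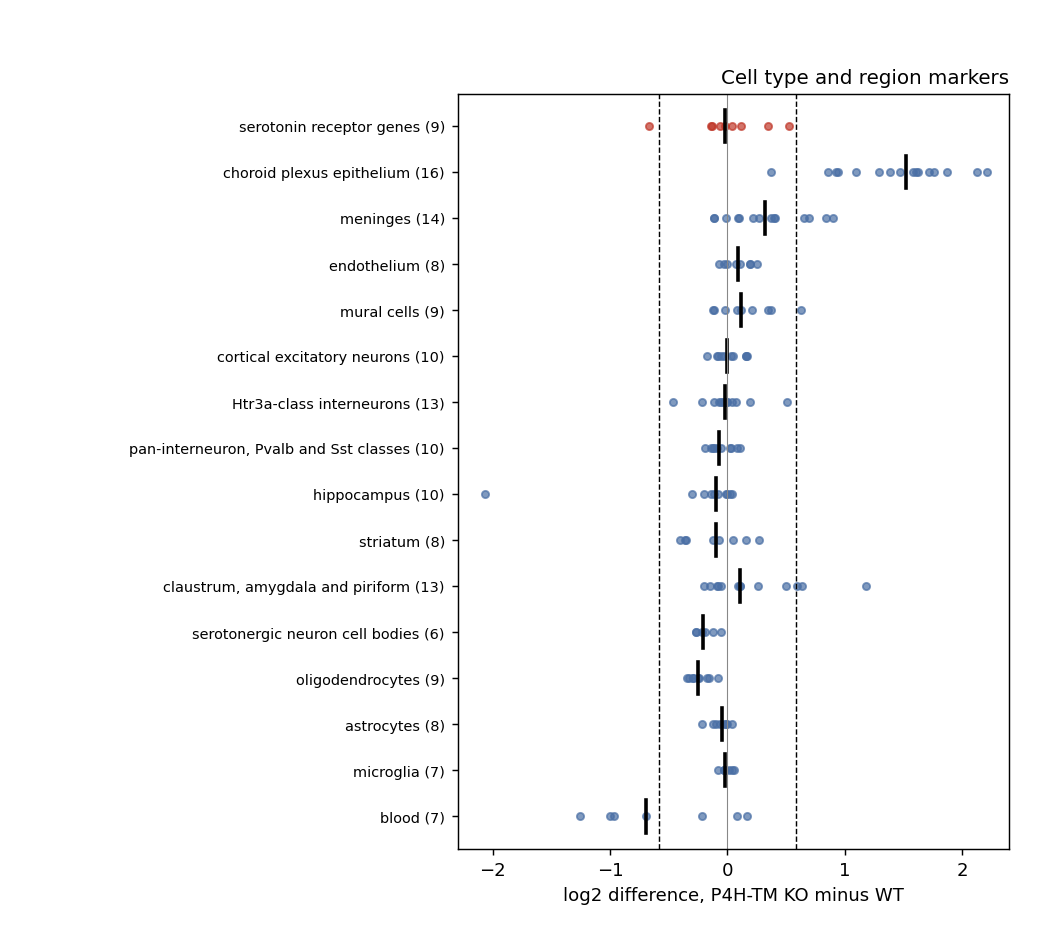
Log2 difference, P4H-TM KO minus WT (horizontal axis), of serotonin receptor genes (red) and of marker genes of each cell type or region (blue), with 1 point per measured gene and the number of genes in brackets. Black bars are medians and dashed lines mark 1.5-fold; there are no error bars because each genotype has 1 array. The choroid plexus median lies at 1.525, whereas the serotonin receptor median lies at -0.02.

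Of the Gi/o-coupled family, Htr1f stood at the other end. Its product is the target of drugs against migraine in humans. Probe set 1440422_at had 6.00 in P4H-TM KO and 6.67 in WT, a difference of -0.67, or 1.59-fold lower in P4H-TM KO. Its mean of 6.335 was just under the filter, with WT above it and P4H-TM KO below. Without a filter, Htr1f was 1 of 27 genes at least 1.5-fold lower, which is 0.148% of all genes, and when the filter was set on whichever array was higher it was 1 of 10, or 0.0841% of 11892 genes. Htr1f passed that filter through WT alone, where it was the higher, so nothing is read from this share. The second probe set, 1450548_at, had 6.03 in P4H-TM KO and 5.83 in WT, a difference of 0.20 in the opposite direction. The probe sets of Htr1f thus differed in sign, and their average was -0.235.

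Htr1a, which inhibits raphe neurons as an autoreceptor and is also found on pyramidal cells of the cortex, had 8.45 in P4H-TM KO and 8.33 in WT on probe set 1438710_at. Its other probe set, 1450219_at, had 5.36 in P4H-TM KO and 5.21 in WT. With 0.12 and 0.15 the probe sets gave similar differences, close to the SD between probe sets. Htr1b, a receptor of axon terminals that limits transmitter release, had 7.87 in P4H-TM KO and 7.83 in WT on probe set 1442077_at. On 1422288_at it had 7.22 on both arrays. Htr1b was thus within 0.04 on both probe sets, and both passed the filter. Htr1d, a receptor of similar kind, was below the filter on all 3 of its probe sets. Probe set 1422290_at had 5.58 in P4H-TM KO and 5.72 in WT, 1440741_at had 4.44 in P4H-TM KO and 4.38 in WT, and 1440166_x_at had 3.76 in P4H-TM KO and 4.06 in WT. Their differences of -0.14, 0.06 and -0.30 did not share a sign.

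Htr3a encodes a subunit of the serotonin-gated cation channel, which in cortex marks a class of interneurons without parvalbumin or somatostatin. Its single probe set, 1418268_at, had 7.76 in P4H-TM KO and 7.89 in WT, a difference of -0.13. The other 13 markers of this interneuron class had a median of -0.02, with 4 members higher, 7 lower and 2 equal, and 0 at 1.5-fold. Among the 11 markers above the filter, Adarb2 had the lowest difference, with 7.81 in P4H-TM KO and 8.03 in WT. Nr2f2, a transcription factor gene also active in vessels, had the highest, with 9.91 in P4H-TM KO and 9.40 in WT. Vip and Reln, which define subtypes of the class, differed by 0.07 and 0.04. With -0.13, Htr3a lay within the range of these markers.

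Htr4 and Htr7 encode Gs-coupled receptors. Htr4 had 8.08 in P4H-TM KO and 8.14 in WT on probe set 1443365_at, and 4.10 in P4H-TM KO and 4.15 in WT on 1427654_a_at. Htr7 had 7.10 in P4H-TM KO and 7.12 in WT on probe set 1435332_at, and 3.95 in P4H-TM KO and 3.97 in WT on 1422235_at. On each probe set of both genes P4H-TM KO was the lower, with differences from -0.06 to -0.02, which is less than the SD between probe sets. Of the 7 members with several probe sets, Htr1a and Htr2c were higher on all of them, Htr4 and Htr7 were lower on all of them, Htr1d and Htr1f were mixed, and 1 probe set of Htr1b showed no difference. Among all 9010 genes with several probe sets, 18.3% were higher on all, 18.3% were lower on all and 54.7% were mixed. Agreement in sign depends on the number of probe sets, which is 3 for Htr1d and 2 for the other 6 members. It can be larger for other genes, so these shares are no like comparison. Htr1b and Htr3a lie on chromosome 9, as the targeted P4htm does. In the order of the 674 genes above the filter on that chromosome, they are 151 and 351 places from P4htm. This order is not a distance in bases, and a part of the targeted locus in their values was not tested.

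**Figure D3:**
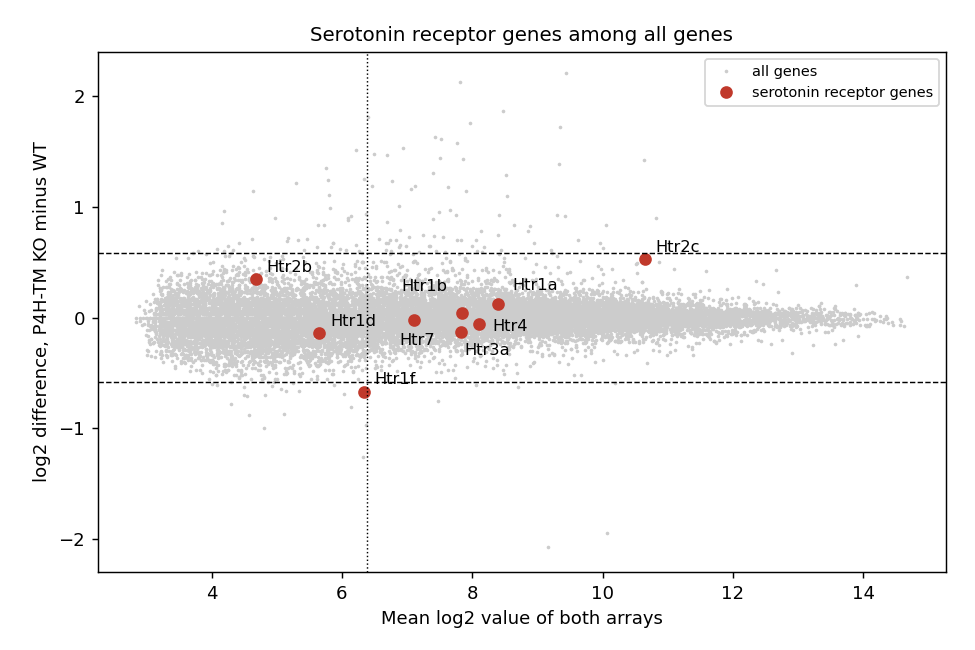
Log2 difference, P4H-TM KO minus WT (vertical axis), against the mean log2 value of both arrays (horizontal axis) for all 18193 genes (grey) and the 9 measured serotonin receptor genes (red). Dashed lines mark 1.5-fold and the dotted line the signal filter at 6.385. Htr2c at 0.53 and Htr1f at -0.67 lie at the edge of the cloud, and the members above the filter other than Htr2c lie between -0.13 and 0.12.

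The receptor genes outside the set of 10 were examined in the same way. Htr5a had 7.02 in P4H-TM KO and 6.91 in WT, but its second probe set had 4.49 in P4H-TM KO and 4.77 in WT. Htr5b had 7.57 in P4H-TM KO and 7.69 in WT. Both genes encode members of the 5-HT5 family, and both were above the filter with differences of 0.11 and -0.12. Below the filter, Htr6, a Gs-coupled receptor gene, had 4.40 in P4H-TM KO and 4.63 in WT. Htr3b, the gene of a further channel subunit and also on chromosome 9, had 4.08 on both arrays.

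Genes for the making, transport and breakdown of serotonin were measured for 11 of 13 listed members, and 0 differed by 1.5-fold. In P4H-TM KO 5 were higher and 6 lower, with a median of -0.05 that was 0.034 with probe sets averaged. Tph2, which makes serotonin in raphe neurons, had 4.71 in P4H-TM KO and 4.76 in WT. Slc6a4, the serotonin transporter, had 5.01 in P4H-TM KO and 5.28 in WT, and Slc18a2, the vesicular monoamine transporter, had 5.91 in P4H-TM KO and 6.10 in WT. These 3 genes, which mark serotonergic cell bodies, were below the filter on both arrays. Tph1, the enzyme of peripheral tissues and pineal gland, was also below it, with 4.05 in P4H-TM KO and 3.86 in WT, as was Gch1, needed for the cofactor of these enzymes, with 5.67 in P4H-TM KO and 5.65 in WT. Ddc, the decarboxylase of the final step, had 8.17 in P4H-TM KO and 8.39 in WT, although its second probe set had 4.66 in P4H-TM KO and 4.37 in WT. Maoa, the oxidase that breaks down serotonin, had 8.93 in P4H-TM KO and 9.09 in WT, whereas the related Maob had 9.36 in P4H-TM KO and 9.21 in WT. Aldh2, the dehydrogenase that follows in the breakdown, had 10.05 in P4H-TM KO and 9.85 in WT, but its probe sets ranged from -0.37 to 0.21. Qdpr, which restores the cofactor, had 13.35 in P4H-TM KO and 13.48 in WT. Slc29a4, a low-affinity transporter of monoamines, had 10.03 in P4H-TM KO and 10.02 in WT. Of 6 measured markers of serotonergic cell bodies, 6 were lower in P4H-TM KO, with a median of -0.205, and only Ddc was above the filter. With probe sets averaged, 5 of the 6 were lower. Among all genes 49.0% were lower, and differences of probe sets below the filter varied with an SD of 0.19. Nothing is therefore read from this count.

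Downstream of the 5-HT2 receptors, P4H-TM KO had the lower value in 10 of 12 genes of the Gq and phospholipase C arm and the higher value in 2, with a median of -0.075 and 0 at 1.5-fold. Plcb4, a phospholipase C gene, had the lowest difference above the filter, with 9.33 in P4H-TM KO and 9.51 in WT, although another of its probe sets differed by 0.30. Rgs4, which shortens signaling by G proteins, had the highest, with 10.59 in P4H-TM KO and 10.46 in WT. Gnaq, the Gq subunit itself, had 12.42 in P4H-TM KO and 12.49 in WT. With probe sets averaged the median was -0.0455, with 9 genes lower and 3 higher. Among all genes 49.0% were lower. Both medians of this arm are smaller in size than the SD of 0.10 between probe sets above the filter, so no fall of the arm is read from this count. The differences of this arm lay between -0.23 and 0.13.

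In the Gi/o arm 5 of 11 genes were higher and 6 were lower, with a median of -0.05 that was 0.0075 with probe sets averaged. The lowest was Rgs14, a regulator of G proteins, with 10.37 in P4H-TM KO and 10.57 in WT. Kcnj9, a subunit of the potassium channels opened by these receptors, was the highest, with 8.75 in P4H-TM KO and 8.55 in WT. In the Gs and cAMP arm 10 of 16 genes were higher and 6 lower, with a median of 0.045 that was -0.0013 with probe sets averaged. Its highest member was Adcy8, a calcium-stimulated adenylyl cyclase, with 7.78 in P4H-TM KO and 7.37 in WT on 1 probe set, and its lowest were Adcy2 and Adcy3, other adenylyl cyclases, both at -0.07. Both arms had 0 genes at 1.5-fold, and both medians changed sign with the way probe sets were combined.

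Among partners of the receptors, 8 of 12 genes were higher, 3 lower and 1 equal, with a median of 0.09 and 0 at 1.5-fold. Adar, which edits RNA, had the highest difference, with 9.71 in P4H-TM KO and 9.57 in WT. Adarb1, the editing enzyme that acts on Htr2c RNA along with Adar, had 9.20 in P4H-TM KO and 9.11 in WT. The lowest was Adarb2, a brain relative without known editing activity, at -0.22, as given above for interneurons. S100a10, the p11 protein that brings 5-HT1B and 5-HT4 receptors to the cell surface, had 9.71 in P4H-TM KO and 9.58 in WT. Mpdz, a scaffold that binds the 5-HT2C receptor, had 10.32 in P4H-TM KO and 10.20 in WT, with probe sets between -0.33 and 0.22.

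Receptors of other transmitters gave a background to these values. Of 4 measured dopamine receptor genes 3 were lower, with a median of -0.20 that was -0.055 with probe sets averaged, and Drd1, the one above the filter, had 7.04 in P4H-TM KO and 7.16 in WT. Both measured adrenergic receptor genes, Adra1b and Adra2c, stayed under 1.5-fold, at -0.22 and 0.10. Of 7 muscarinic and histamine receptor genes 3 were higher, and the median was -0.03, or 0.03 with probe sets averaged. Above the filter Hrh1 had 7.35 in P4H-TM KO and 7.06 in WT, and Hrh2 had 6.55 in P4H-TM KO and 6.76 in WT. Nicotinic receptor subunits, which belong to the same channel superfamily as Htr3a, had 3 of 11 genes higher, 7 lower and 1 equal, with a median of -0.09. Among all genes 49.0% were lower. Only 3 of these 11 subunit genes were above the filter, with a median of 0. Chrna7 was the highest of them above the filter, with 10.46 in P4H-TM KO and 10.35 in WT, and Chrnb2 the lowest, with 7.70 in P4H-TM KO and 7.83 in WT. None of these receptor lists held a gene at 1.5-fold above the filter, but few of their genes passed it. These were 1 dopamine, 1 adrenergic, 4 muscarinic and histamine, and 3 nicotinic receptor genes. Among all genes above the filter 0.631% were 1.5-fold higher and 0.0512% lower, so nothing is read from the count of 0.

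**Figure D4:**
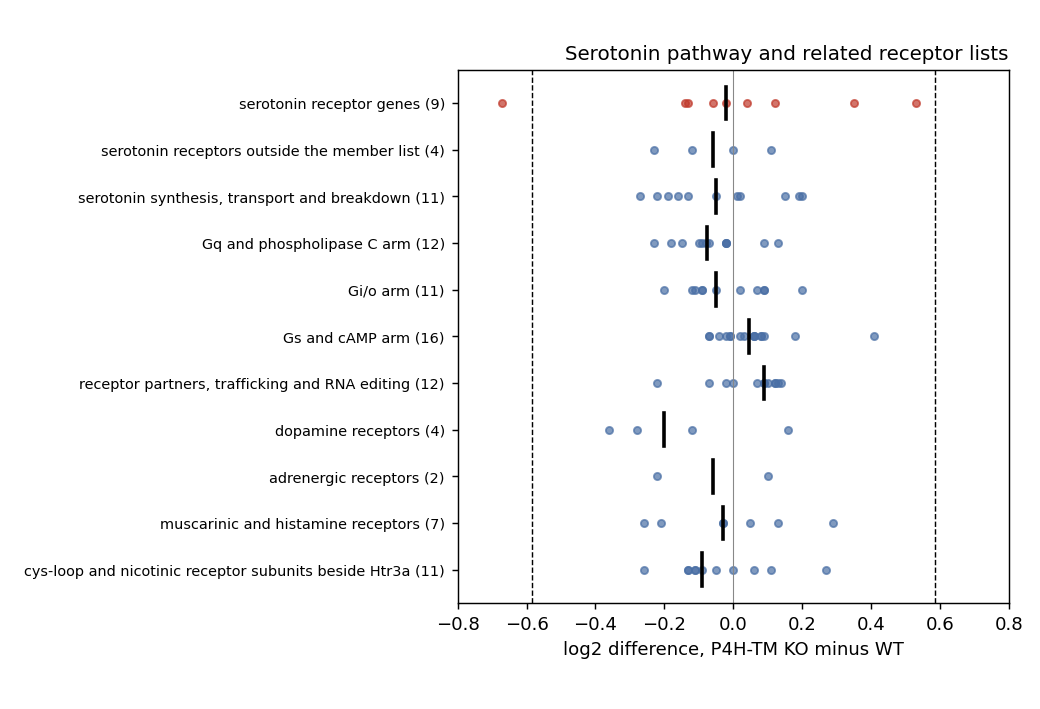
Log2 difference, P4H-TM KO minus WT (horizontal axis), of serotonin receptor genes (red) and of genes of the serotonin pathway and of related receptors (blue), with 1 point per measured gene and the number of genes in brackets. Black bars are medians and dashed lines mark 1.5-fold; there are no error bars because each genotype has 1 array. Medians lie between -0.20 for dopamine receptors and 0.09 for receptor partners, and Htr1f at -0.67, below the signal filter, is the only point outside the dashed lines.

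Of 10 measured markers of cortical excitatory neurons, 9 were above the filter, which bears on the tissue label as far as their presence goes. Their median difference was 0.00, and those above the filter ran from Neurod6 at -0.17 to Fezf2 and Rorb at 0.16. Hippocampal markers had a median of -0.095 over 10 genes, from Spink8 at -2.07, the one at 1.5-fold, to Grik4 at 0.04. Spink8 had the lowest difference of all genes measured, whereas the next marker of the list, Dsp, was at -0.30. The cause of the Spink8 value was not tested, and it is not read as a change of the region. Striatal markers had a median of -0.095 over 8 genes, with 0 at 1.5-fold and a range above the filter from Penk at -0.40 to Tac1 at 0.16. Interneuron markers of the other classes had a median of -0.07, or 0.04 with probe sets averaged, from Pvalb at -0.19 to Sst at 0.11. Oligodendrocyte markers had 0 of 9 higher, with a median of -0.25, from Cldn11 at -0.34 to Mbp at -0.08. Astrocyte markers had a median of -0.045, from S100b at -0.22 to Slc1a3 at 0.04, and microglial markers one of -0.02, from Csf1r at -0.08 to Cx3cr1 at 0.06. Blood markers had a median of -0.69 over 7 genes, of which 5 were lower and 2 higher, but -0.45 with probe sets averaged. It was -0.22 over 5 genes when probe sets whose ID ends in _a_at, _s_at or _x_at were left out. Of the 7 blood markers Hbb-b2, at -0.22, was above the filter. The part of these tissues in the receptor values was not tested.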

How the data were processed

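Cortical RNA of P4H-TM KO and WT mice was measured on 1 array per genotype. The authors used the GeneChip Operating System to quantify the scans and GenePattern to normalize them. RMA, a method that subtracts background, brings arrays to a common scale and combines probes into probe sets, is named in the submitters' processing notes, and its version is not given in the sources used here. The values deposited by the authors are on the log2 scale with 2 decimals, from 2.69 to 14.91, with medians of 6.39 in P4H-TM KO and 6.38 in WT. Rounding makes small differences coarse, and normalization sets the arrays to a common scale, so a global shift would not be seen. Depth does not apply to arrays, and their number limits the precision.

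Of 45101 probe sets, 64 controls were left out, 34945 carried 1 symbol, 932 several and 9160 were unnamed here. Platform annotation gave the symbols, and 18145 of 18193 were found in the RefSeq table of GRCm38.p6. Genes named were all members, P4htm, the serotonin supply and other receptor genes, and, of other lists, those at 1.5-fold above the filter and the highest and lowest above it. Gnaq, Adarb1, S100a10, Mpdz, Vip, Reln, Slc4a5, Adra1b and Nr4a2 were named beyond this rule, after their values were seen. Receptor genes and the 25 lists were chosen with earlier results of these data known. List alternatives and the choroid plexus sum without Ttr were added after the data were seen. Counting was checked on simulated data. Start-site windows of 7 of the 10 receptor genes were used, and others are not reported here. The work was done in Python 3.11.15 with pandas 2.3.3, numpy 2.4.6 and statsmodels 0.14.6, and plots were drawn with matplotlib 3.10.9.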

Additional observations from a re-analysis of the deposited data

How the results depend on the processing

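Each receptor gene was recomputed with probe sets averaged, without probe sets whose ID marks shared transcripts, with centred arrays and with the trend on signal removed (loess, span 0.3). Of these 36 values, 34 stayed within the SD between probe sets of 0.15, and 2 moved further: with probe sets averaged, Htr1f was -0.235 in place of -0.67 and Htr2c was 0.33 in place of 0.53. By construction these averages take in the second probe set of each gene. Many of the 34 could hardly move. No receptor gene was represented by a probe set with such an ID, so leaving those out changed no value. Centring shifted all genes by the same small step, and averaging could not change Htr2b and Htr3a, which have 1 probe set each. The 34 are thus no measure of stability. The count of 0 receptor genes at least 1.5-fold higher became 1 (Htr2c) at a threshold of 0.32 on the log2 scale, and the count of 0 lower became 1 (Htr1f) without a filter and 1 when the filter was set on whichever array was higher, which Htr1f passed through WT alone. The other 13 counts were 0, at 2-fold among others. The median of -0.02 ranged from -0.03 with centred arrays to 0.01 over genes above the filter, and the mean was 0.0022, so the sign of the centre changed with these choices. Differences measured below the filter, as for Htr1d, Htr1f and Htr2b, carry the wider SD between probe sets of 0.19. No paired analysis was possible because each genotype has 1 array.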
